A study of Homo sapiens with 38 samples.

Results

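The selenocysteine synthesis and insertion machinery was followed through 9 genes, chosen by their names in the deposited tables: PSTK, SEPSECS, SEPHS1, SEPHS2, EEFSEC, SECISBP2, TRNAU1AP, SCLY and LRP8. The choice was made with earlier results of these data known. These 9 genes are among the 18025 found in the guide tables of both screened lines. They were targeted by 34 of 66758 guides in Hep3B and by 35 of 66447 guides in SNU-398, with 33 guides in both lines and 36 in either. Most had 4 guides per line, and guides are numbered here along the chromosome.

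Selenocysteine is made on its own transfer RNA rather than as a free amino acid. The tRNA is first charged with serine, PSTK phosphorylates that serine, and SEPSECS replaces the phosphate with selenium from selenophosphate, which SEPHS2 makes. SECISBP2 and EEFSEC then deliver the charged tRNA to UGA codons of messages that carry a selenocysteine insertion (SECIS) element, and so build selenoproteins such as GPX4, the peroxidase that removes lipid peroxides and holds back ferroptosis.

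Hep3B and SNU-398 are human hepatocellular carcinoma lines. Cells carrying stable Cas9 were transduced at low multiplicity with the TKOv3 knockout library, selected with puromycin, and harvested as T0 or grown for 14 days with an inhibitor at IC20 or with vehicle (DMSO). The inhibitors were Sorafenib, Regorafenib and Lenvatinib, which block tyrosine kinases, Erastin, which blocks cystine import and induces ferroptosis, and Abemaciclib and Palbociclib, which block CDK4 and CDK6. Each line gave 16 libraries, 2 for each of 8 groups, and T1 libraries are treated here as the vehicle group because the design names only T0, the 6 inhibitors and DMSO. RNA-seq was made from 3 PSTK-KO libraries (genotype label PSTK-/-) and 3 control libraries (genotype label wild type), all labelled Hep3B. The knockout used a construct with paired guides in a Cas9 line. The genotype labels do not say whether the controls carried Cas9 or a control guide. The screens measure pools of knockouts, not clones, and the sources used here do not say whether the 2 libraries of a screen group were separate cultures, so p-values from the screens reflect the spread between those libraries, which may be technical.

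Guide libraries held 27184564 to 46376708 counts at T0 and 11198022 to 26398422 in the other groups, and RNA-seq libraries held 15404153 to 16851558. Reads of amplified guides carry no molecular identifiers, so counting errors and limits for counts of 0 cover sampling only. Between 88.0% and 98.6% of the guide counts of a library were even numbers, with 0 taken as even. The limits for counts of 0 do not allow for this, and would be less strict if counts rose in larger steps. In SNU-398, Erastin replicate 2 stood apart: over shared guides its counts correlated at 0.956 with SNU-398 vehicle and at 0.960 with Hep3B vehicle, against 0.955 and 0.897 for Erastin replicate 1. The Pearson correlation between the replicates was 0.954 in that group and at least 0.991 in the other SNU-398 groups. Results of the members that use this library are therefore in part also given without it. The correlations with PSTK and the calls of further gene lists include it.

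The first question was which of these knockouts were lost from the pool under an inhibitor. NormZ, the standardised sum of the log2 ratios of a gene's guides between an inhibitor and vehicle, was the measure, and a gene below the NormZ threshold of -2.33 is called a resister because cells without it were lost. That threshold is a one-sided normal p of 0.01, the cut the study used. PSTK was a resister in 5 of 6 Hep3B screens and 3 of 6 SNU-398 screens, SEPSECS in 2 of 6 screens of each line, and LRP8 in 1 SNU-398 screen. SEPHS1, SEPHS2, EEFSEC, SECISBP2, TRNAU1AP and SCLY passed in none of the 12 screens. The 9 genes gave 7 resister calls in 54 tests in Hep3B, where 1.76% of all tests were resister calls, and 6 in 54 in SNU-398, where 1.60% were. PSTK, which the study picked from these same screens, gave 5 of the 7 and 3 of the 6. The members' counts beside the shares over all tests are therefore a description only. No member was a sensitizer, a gene whose knockout gained in share, against 0.827% of all tests in Hep3B and 0.852% in SNU-398.

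The median NormZ of the members was -0.29 in Hep3B and -0.20 in SNU-398, against 0.07 and 0.04 over all genes. The 6 screens of a line share the same vehicle libraries, so calls of a gene under several inhibitors are not independent of each other.

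PSTK is the kinase that makes O-phosphoseryl-tRNA, the step that commits the seryl-tRNA to selenocysteine. Among the Hep3B screens PSTK had a NormZ of -4.65 with Sorafenib, -3.81 with Erastin, -1.89 with Regorafenib, -3.71 with Lenvatinib, -5.66 with Abemaciclib and -4.02 with Palbociclib. It was the lowest of 18029 genes under Abemaciclib and the second lowest under Sorafenib, and it missed the threshold only under Regorafenib. In SNU-398 the values were -7.26 with Sorafenib, -4.87 with Erastin, -1.13 with Regorafenib, -1.53 with Lenvatinib, -3.60 with Abemaciclib and -1.96 with Palbociclib. It was the lowest of 18036 genes under Sorafenib and rank 4 under Erastin in that line. Without Erastin replicate 2, the SNU-398 Erastin value was -5.19. All 8 PSTK calls held under each of the alternatives tried for NormZ.

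SEPSECS, the synthase that acts directly after PSTK, showed a narrower pattern. Its NormZ in Hep3B was -2.49 under Sorafenib, -2.90 under Erastin, -0.98 under Regorafenib, 0.67 under Lenvatinib, -0.97 under Abemaciclib and 0.37 under Palbociclib. In SNU-398 the values were -5.30, -2.36, -0.37, -0.77, 0.17 and 0.01 in the same order of inhibitors. The 4 calls thus fell on Sorafenib and Erastin in both lines, and rank 8 of 18036 under Sorafenib in SNU-398 was the lowest rank. The SNU-398 Sorafenib call held under every alternative tried, whereas the other 3 were lost under at least 1. The Hep3B Sorafenib value was -2.15 with a pseudocount of 1, -2.30 with median-of-ratios scaling and -1.74 over guides with a mean vehicle count of at least 30. The Hep3B Erastin value was -2.13 over those guides. The SNU-398 Erastin value was -3.01 without Erastin replicate 2, -0.99 without replicate 1 of both groups and -1.93 without vehicle replicate 2.

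LRP8, the lipoprotein receptor that takes up the selenium carrier selenoprotein P, had a NormZ of -2.81 under Sorafenib in SNU-398 and 1.51 under Sorafenib in Hep3B. The SNU-398 call was lost without replicate 2 of both groups, at -2.29. In SNU-398 it was below 0 in 5 of 6 screens, with a median of -1.80, a value of -2.02 under Abemaciclib and a highest value of 0.52, and its Hep3B values ran between -0.31 and 1.51. EEFSEC, the elongation factor that carries selenocysteyl-tRNA to the ribosome, was below 0 in 6 of 6 Hep3B screens, between -1.78 and -0.64, and in 5 of 6 SNU-398 screens, between -1.49 and 0.18. None of these EEFSEC values passed the threshold. Without Erastin replicate 2, the SNU-398 Erastin values were 1.15 for LRP8 and -1.3 for EEFSEC.

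Selenium supply and the SECIS factors stayed within the threshold in both lines. SEPHS2, the selenophosphate synthetase that is itself a selenoprotein, ran between -1.40 and 0.47 in Hep3B and between -0.92 and 1.05 in SNU-398. SEPHS1, its paralogue that lacks selenocysteine, ran between -0.24 and 1.04 in Hep3B and between -0.12 and 1.73 in SNU-398. SCLY, the lyase that recovers selenium from free selenocysteine, ran between 0.20 and 1.42 in Hep3B and between -1.33 and 1.02 in SNU-398. SECISBP2, which binds the SECIS element, ran between -0.81 and 0.91 in Hep3B and between -0.64 and 1.27 in SNU-398. TRNAU1AP, a protein that associates with the selenocysteine tRNA, ran between -0.69 and 0.68 in Hep3B and between -0.08 and 1.18 in SNU-398. Without Erastin replicate 2, the SNU-398 Erastin values were -1.73 for SEPHS2, 1.22 for SEPHS1, 0.27 for SCLY, -0.52 for SECISBP2 and 0.64 for TRNAU1AP.

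Whether the lines differed was tested on the difference of NormZ under the same inhibitor, adjusted over all shared genes by the method of Benjamini and Hochberg. None of 54 differences passed, with a lowest adjusted p of 0.62 by the normal approximation and 3 at an unadjusted p under 0.05. Over all genes, 0.0074% of 108150 tests passed. The difference between the lines in the number of PSTK calls was thus not shown to exceed the error of this test.

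The guides behind each value were then compared one by one. Levels are TMM-scaled CPM, counts relative to the scaled library total, and edgeR's quasi-likelihood test was run on the guides that passed a filter on low counts, 28 of the 34 in each comparison of Hep3B and 28 of the 35 in SNU-398. Over the 6 inhibitors, 75 of 168 guide tests of the members were lower and 30 were higher than vehicle in Hep3B, where 36.6% of all tests were lower and 25.6% higher. In SNU-398, 33 of 168 were lower and 9 higher, against 15.6% lower and 11.6% higher over all guides. Without Erastin replicate 2, SNU-398 gave 53 lower and 26 higher of 186. In that fit, between 22.65% and 58.09% of all guides were called in a comparison, in either direction. Among 116 control guides the share was 13.79% to 56.9%. These calls must be read against guides without a target: edgeR called between 53.6% and 73.8% of 84 control guides in the Hep3B comparisons and between 2.75% and 44.0% of 109 in those of SNU-398. Control guides for a comparison were those in the same band of mean vehicle count, 30 to 100 or at least 100 counts, called here control guides of its band. Under the inhibitors, TMM moved guide log2 fold changes by 0.08 to 0.29 in Hep3B and by -0.01 to 0.09 in SNU-398 relative to scaling by total count.

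PSTK guide 1 dominated the gene, with 95.8% to 97.4% of all PSTK counts in the vehicle and T0 libraries of both lines. In Hep3B it stood at 226.7 and 225.6 CPM under Sorafenib, 280.1 and 272.2 under Erastin, 290.5 and 299.3 under Regorafenib, 264.8 and 268.0 under Lenvatinib, 217.2 and 202.6 under Abemaciclib, and 262.2 and 261.6 under Palbociclib, against 401.4 and 396.7 with vehicle. Every inhibitor library of Hep3B lay below both vehicle libraries. The log2 fold changes ran between -0.92 ± 0.04 (SE) under Abemaciclib, at an edgeR adjusted p of 5.14e-32, and -0.44 ± 0.04 under Regorafenib. Such falls also occurred among guides without a target, and between 4 and 13 of the 41 control guides of its band were as low under an inhibitor. That band starts at 100 counts, while PSTK guide 1 averaged 8101 counts with vehicle.

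In SNU-398, PSTK guide 1 stood at 105.3 and 96.9 CPM under Sorafenib, 160.1 and 240.3 under Erastin, 282.2 and 280.5 under Regorafenib, 212.0 and 206.0 under Lenvatinib, 299.0 and 288.9 under Abemaciclib, and 315.3 and 312.7 under Palbociclib, against 396.7 and 363.8 with vehicle. The groups again did not overlap. It fell by 1.91 ± 0.12 on the log2 scale under Sorafenib (edgeR adjusted p = 4.052e-07), lower than all 39 control guides of its band. It also fell under Erastin (-0.93 ± 0.11, and -1.27 ± 0.05 without Erastin replicate 2), Lenvatinib (-0.86 ± 0.11) and Regorafenib (-0.44 ± 0.11). The changes of -0.37 under Abemaciclib and -0.28 under Palbociclib did not pass, at edgeR adjusted p of 0.0727 and 0.109. Without Erastin replicate 2 both passed, at -0.39 ± 0.04 and -0.29 ± 0.04. Apart from Sorafenib, between 1 and 10 of the 39 control guides of the band were as low as PSTK guide 1 under an inhibitor.

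PSTK guide 3 was the most depleted guide of the gene in Hep3B. It stood at 0 and 0.336 CPM under Sorafenib, 0.818 and 0.627 under Erastin, 4.15 and 5.56 under Regorafenib, 0 and 0.171 under Lenvatinib, 0 and 0 under Abemaciclib, and 0 and 0.349 under Palbociclib, against 6.78 and 7.02 with vehicle. Set against a floor of 3 counts over the group, Abemaciclib left it at least 77.3-fold lower than vehicle, without allowance for the even counts. With 0.5 CPM added to each mean, its log2 ratio was -3.89 under Abemaciclib, -3.66 under Lenvatinib, -3.47 under Sorafenib, -3.46 under Palbociclib and -2.60 under Erastin, each below all 41 control guides of its band. In SNU-398 the same guide fell under Sorafenib (1.81 and 1.54 CPM) and Erastin (0.328 and 2.07), against 3.88 and 4.39 with vehicle, with log2 fold changes of -1.30 ± 0.47 and -1.81 ± 0.48. The Erastin value was -3.64 ± 0.50 without Erastin replicate 2. Of the 20 control guides of its SNU-398 band, 2 were as low under Sorafenib and 6 under Erastin.

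The other PSTK guides were rarer and did not all move together. Guide 2 fell in 5 of 6 Hep3B comparisons, with 2.497 and 0.835 CPM under Abemaciclib against 7.886 and 9.565 with vehicle, where 1 of 41 control guides was as low. In SNU-398 guide 2 fell under Sorafenib, and also under Abemaciclib without Erastin replicate 2. Guide 4 ran against the rest in Hep3B under Palbociclib, at 6.84 and 5.24 CPM against 2.43 and 1.49 with vehicle (log2 fold change 1.58 ± 0.40, edgeR adjusted p = 0.000452), while under Sorafenib it stood at 0.0981 and 0 CPM. Of the 14 control guides of its band, 1 was as high under Palbociclib and 6 were as low under Sorafenib. Counting all tested PSTK guides, 18 of 24 tests were lower and 1 higher in Hep3B, and 7 of 18 were lower and 0 higher in SNU-398. Over all guides, 36.6% of tests were lower and 25.6% higher in Hep3B, and 15.6% and 11.6% in SNU-398. Without Erastin replicate 2, 10 of 18 PSTK guide tests were lower and 1 higher in SNU-398. All 4 PSTK guides fell in Hep3B under Sorafenib and under Abemaciclib.

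For SEPSECS the counts were spread over several guides, and guides 2 and 3 carried the fall under Sorafenib. Guide 2 stood at 5.79 and 6.56 CPM under Sorafenib and 4.91 and 5.33 under Erastin in Hep3B, against 15.99 and 17.49 with vehicle. In SNU-398 it stood at 2.29 and 2.59 CPM under Sorafenib and 8.11 and 6.81 under Erastin, against 17.06 and 15.19 with vehicle. The libraries of both inhibitors lay below vehicle in both lines, with log2 fold changes for Sorafenib and Erastin of -1.45 ± 0.18 and -1.71 ± 0.18 in Hep3B, and in SNU-398 of -2.72 ± 0.20 and -1.11 ± 0.18. The SNU-398 Sorafenib fall (edgeR adjusted p = 8.134e-07) and the Hep3B Erastin fall lay below every control guide of their band.

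SEPSECS guide 3 stood at 9.32 and 10.43 CPM under Sorafenib in Hep3B against 34.46 and 30.79 with vehicle, and at 10.48 and 12.68 in SNU-398 against 30.78 and 35.27. The fold changes were alike in size, -1.75 ± 0.12 in Hep3B and -1.51 ± 0.21 in SNU-398, and 3 of 41 and 1 of 39 control guides of the band were as low. SEPSECS guide 4 went the other way in Hep3B, at 15.37 and 18.01 CPM under Lenvatinib against 2.95 and 2.69 with vehicle (log2 fold change 2.55 ± 0.27), where 1 of 14 control guides was as high. Over all SEPSECS guides, 12 tests were lower and 4 higher of 24 in Hep3B, and 6 were lower and 2 higher of 24 in SNU-398. The shares over all guides were 36.6% lower and 25.6% higher in Hep3B, and 15.6% and 11.6% in SNU-398.

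Of the remaining members, LRP8 guide 4 and EEFSEC guide 4 each fell below every control guide of its band in 1 comparison. This was 1 of 18 LRP8 comparisons in SNU-398 and 1 of 6 EEFSEC comparisons in Hep3B. SEPHS1, SEPHS2, SECISBP2, TRNAU1AP and SCLY had no such comparison in either line. The bands held 39 control guides for LRP8 guide 4 and 14 for EEFSEC guide 4. Whether such falls are more frequent than among unaffected guides was not tested. LRP8 guide 4 stood at 2.29 and 3.17 CPM under Sorafenib in SNU-398, against 13.99 and 13.33 with vehicle. EEFSEC guide 4 had no count in either Abemaciclib library of Hep3B, against 3.02 and 2.99 CPM with vehicle. At the floor of 3 counts over the group it was at least 33.7-fold lower, again without allowance for the even counts. No guide of any member rose above every control guide of its band.

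Counts were also summed over the guides of each gene. In Hep3B, 28 of 54 tests of the members were lower and 16 higher than vehicle, where 37.5% of all genes were lower and 32.8% higher. In SNU-398, 14 were lower and 4 higher, against 15.1% and 13.3% over all genes, and without Erastin replicate 2 the members gave 22 and 8. The shares over all genes without that library are not given here. Summed PSTK fell under all 6 inhibitors in Hep3B, with log2 fold changes of -0.47 to -1.07, and under 5 in SNU-398, where the value under Sorafenib was -1.90. The SNU-398 Abemaciclib and Regorafenib calls of PSTK were lost without vehicle replicate 1, and the Abemaciclib call also without vehicle replicate 2 and under the replicate block, while the Palbociclib change of -0.30 passed without Erastin replicate 2. Summed SEPSECS fell by 1.25 ± 0.08 in Hep3B and by 1.30 ± 0.16 in SNU-398 under Sorafenib on the log2 scale. Under Erastin it fell by 0.99 ± 0.07 in Hep3B and by 0.59 ± 0.15 in SNU-398. The SNU-398 Erastin value was -0.99 without Erastin replicate 2, and its call was lost without vehicle replicate 2.

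Summed EEFSEC fell under all 6 inhibitors in Hep3B, but from few counts. It stood at 0 and 0.326 CPM under Sorafenib, 2.41 and 2.36 under Erastin, 0.886 and 0.909 under Regorafenib, 0.292 and 0.169 under Lenvatinib, 0.0888 and 0 under Abemaciclib and 0 and 0.177 under Palbociclib, against 4.30 and 4.67 with vehicle. All 12 inhibitor libraries lay below both vehicle libraries, although its NormZ, which weighs each guide by the spread at its count, passed in no screen. The Erastin call was lost without either vehicle library. In SNU-398 EEFSEC stood at 1.71 and 1.51 CPM under Erastin against 5.61 and 4.29 with vehicle, a log2 fold change of -1.63 ± 0.30 (-1.56 without Erastin replicate 2), and its Lenvatinib call was lost under 4 alternatives. Summed TRNAU1AP, by contrast, rose under 5 of 6 inhibitors in Hep3B, by up to 1.09 ± 0.10 under Abemaciclib (47.08 and 46.51 CPM, against 22.44 and 21.18 with vehicle). The sum was mostly guide 1, which held 86.0% of the gene's vehicle counts and lay above vehicle under all 6 inhibitors. Under Sorafenib its libraries overlapped vehicle when scaled by total count. There, 24 of 41 control guides of its band were as high, against 2 of 41 under Abemaciclib. Guide 2 went the other way, lower under all 6, with 0.0925 and 0 CPM under Abemaciclib against 2.58 and 2.24 with vehicle, and guide 4 was lower under 5. Of the 14 control guides of its band, between 1 (Abemaciclib) and 6 (Sorafenib) were as low as guide 2. Guide 4 had only 16 and 4 counts with vehicle. Over all TRNAU1AP guides in Hep3B, 11 of 24 tests were lower and 6 higher, where 36.6% of all guide tests were lower and 25.6% higher. The NormZ of TRNAU1AP stayed within the threshold. SEPHS2 split in Hep3B, with 70.53 and 67.90 CPM under Abemaciclib and 17.40 and 18.72 under Lenvatinib, against 38.58 and 38.94 with vehicle. Its guides 1 and 2 were both lower under Lenvatinib but went opposite ways under Abemaciclib. Guide 2 stood at 65.01 and 62.62 CPM under Abemaciclib against 15.99 and 17.78 with vehicle. Guide 1 stood at 8.416 and 5.845 against 21.01 and 19.58.

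The second question was whether losing these genes changed growth without inhibitor, taken from vehicle after 14 days against T0. The share of all guides at 0 was 4.34% and 6.43% at T0 and 38.71% and 39.37% with vehicle in Hep3B. In SNU-398 it was 10.74% and 12.63% at T0 and 25.26% and 29.27% with vehicle. Control guides are not given for this comparison, so whether the fall of a rare guide reflects growth was not tested. Of the members' guides, 10 of 28 were lower and 4 higher in Hep3B, where 36.9% and 26.3% of all guides were, and 2 were lower and 2 higher of 28 in SNU-398, where 7.95% and 6.49% were. Of the summed genes, 3 of 9 were lower and 2 higher in Hep3B (33.5% and 29.1% of all genes), and 1 was lower and 0 higher in SNU-398 (6.74% and 6.33%). Without Erastin replicate 2, SNU-398 gave 7 lower and 7 higher of 31 guides, and 2 lower and 3 higher genes. The shares over all guides and genes without that library are not given here. SEPHS1 fell the most: it stood at 1.46 and 2.65 CPM with vehicle against 8.19 and 8.04 at T0 in Hep3B (log2 fold change -2.06 ± 0.33, edgeR adjusted p = 1.766e-09). SEPHS1 drew 100% of these vehicle counts from guide 2, which had only 38 and 34 counts. In SNU-398 it stood at 5.70 and 4.64 CPM with vehicle against 8.65 and 9.15 at T0 (-0.77 ± 0.22, edgeR adjusted p = 0.0319), a call that was lost when any 1 of the 4 libraries was left out.

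Summed PSTK changed little over the same period. It stood at 436.4 and 432.3 CPM with vehicle against 410.4 and 392.6 at T0 in Hep3B (0.11 ± 0.03), and at 407.3 and 382.2 against 412.4 and 411.2 in SNU-398 (-0.06 ± 0.10). The Hep3B call was lost without T0 replicate 2. A pair of members changed oppositely in Hep3B, with SCLY lower (-0.33 ± 0.10, lost without vehicle replicate 1 or T0 replicate 2) and SECISBP2 higher (0.51 ± 0.11). Each sum came mostly from a leading guide, with 100% of SCLY vehicle counts in guide 4 and 96.6% of SECISBP2 vehicle counts in guide 2. The other SECISBP2 guides went the other way. Guide 1 had 0.884 and 0.598 CPM with vehicle against 1.893 and 2.175 at T0. Guide 3 had 0.0737 and 0 against 0.322 and 0.204, and guide 4 had 0 and 0 against 0.886 and 1.02. The Hep3B fall of EEFSEC (-0.71 ± 0.31) was lost under DESeq2, under the replicate block and without any 1 of the 4 libraries. SEPSECS and TRNAU1AP passed in neither line. Both PSTK guide 4 (2.43 and 1.49 CPM with vehicle against 0.242 and 0.272 at T0) and SEPSECS guide 4 (2.95 and 2.69 against 0.161 and 0.136) rose in Hep3B from very low starting levels.

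The genes whose NormZ over the 12 screens most resembled that of PSTK were TOR1A (Pearson r = 0.887), NSG2 (0.886), RHBDF1 (0.885), MAGEC2 (0.881) and PPP1R10 (0.877), out of 18024 genes. Among the members, SEPSECS came closest at 0.637 (rank 364), followed by TRNAU1AP at 0.34 and EEFSEC at 0.137, while SEPHS1, SCLY and SECISBP2 lay between -0.411 and -0.40. These values are a description, since the 6 screens of a line share vehicle libraries.

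Genes that use or regulate the pathway were examined from 2 lists. Over all genes, 1.76% of tests in Hep3B and 1.6% in SNU-398 were resister calls. Of 24 selenoproteins in both tables, 2 of 144 tests were resister calls in Hep3B and 3 of 144 in SNU-398, with medians of -0.09 and -0.01 against 0.07 and 0.04 over all genes. Of 11 further factors of the selenocysteine tRNA and the SECIS element, 1 of 66 tests was a resister call in each line. Neither list gave a sensitizer call, against 0.827% of all tests in Hep3B and 0.852% in SNU-398. Apart from PSTK and SEPSECS, no gene of the lists passed in 3 or more screens.

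RNA-seq asked how the machinery changed in PSTK-KO cells. The targeted gene came first: PSTK (GRCh38 chr10:122954381-122997513, plus strand) had 63, 71 and 87 counts in the PSTK-KO libraries against 76, 84 and 64 in controls. Its message was not lower in the libraries labelled PSTK-KO, with a log2 fold change of -0.06 (95% interval -0.42 to 0.30, edgeR adjusted p = 0.840). Counts per gene do not show whether these transcripts carried a disrupted reading frame, so the message level checks the labels only in part.

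Of 15370 genes tested, 17.2% were lower and 15.6% higher in PSTK-KO, and among the 9 members 2 were lower and 0 higher. EEFSEC (chr3:128153454-128408646, plus strand) had 16.96, 16.14 and 16.73 CPM in PSTK-KO against 20.95, 21.22 and 26.29 in controls. TRNAU1AP (chr1:28553085-28578545, plus strand) had 29.99, 30.64 and 33.18 CPM in PSTK-KO against 40.57, 37.41 and 38.01 in controls. For both, all PSTK-KO libraries lay below all controls. The share of all genes tested whose groups did not overlap is not given here. EEFSEC fell by 0.46 ± 0.10 (SE) on the log2 scale (edgeR adjusted p = 0.000885) and TRNAU1AP by 0.31 ± 0.08 (edgeR adjusted p = 0.00201). Both calls held under all 11 alternatives.

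SEPHS1 also lay below controls in every library, at 66.6, 66.4 and 66.1 CPM in PSTK-KO against 71.8, 72.7 and 71.5, but its log2 fold change of -0.12 ± 0.06 did not pass (edgeR adjusted p = 0.139). The groups overlapped for SEPSECS, SEPHS2, SECISBP2, SCLY, LRP8 and PSTK. The median log2 fold change was -0.08 over the 9 members and 0.00 over all genes tested. Per length, the members spanned a wide range of levels. SEPHS1 averaged 16.97 ± 0.0734 FPKM in PSTK-KO and 18.36 ± 0.230 FPKM in controls (SD, n = 3 each), and SEPHS2 and LRP8 were of like level. PSTK averaged 0.727 ± 0.0887 FPKM in PSTK-KO and 0.758 ± 0.0816 FPKM in controls, and SCLY, the lowest, 0.415 FPKM in PSTK-KO and 0.363 FPKM in controls.

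The promoters of EEFSEC and TRNAU1AP, the members called lower, are shown. That both fell is not read as a joint change, since 17.2% of all genes tested were lower. The windows are the 250 bases before the RefSeq start site on GRCh38.p14, both on the plus strand. EEFSEC lies at chr3:128153231-128153480 and TRNAU1AP at chr1:28552835-28553084. Capitals mark the match to the ETS-type motif CCGGAAG, searched on both strands, whose first base lies 100 bases before the start in EEFSEC and 181 in TRNAU1AP.
EEFSEC: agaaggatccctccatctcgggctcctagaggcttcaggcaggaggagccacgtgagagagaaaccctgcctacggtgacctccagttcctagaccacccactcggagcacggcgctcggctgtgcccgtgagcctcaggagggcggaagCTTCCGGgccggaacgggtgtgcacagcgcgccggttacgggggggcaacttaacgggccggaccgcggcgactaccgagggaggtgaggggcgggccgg
TRNAU1AP: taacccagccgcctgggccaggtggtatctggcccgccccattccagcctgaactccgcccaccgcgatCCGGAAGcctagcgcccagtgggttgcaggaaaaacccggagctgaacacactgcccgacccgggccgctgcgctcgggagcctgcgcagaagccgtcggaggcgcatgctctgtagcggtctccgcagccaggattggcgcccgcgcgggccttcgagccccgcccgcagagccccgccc
It was picked from 6 motifs searched, and the GC box GGGCGG was also found in both windows and in 42.6% of all windows. The ETS-type motif was present in 4 of the 8 members that have a window (EEFSEC, SCLY, SECISBP2 and TRNAU1AP) and in 8.52% of 35116 windows. SCLY and SECISBP2 hold the same letters and did not pass in the RNA-seq, and a match is a description of the sequence only.

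Among the products of the pathway, 21 of 25 selenoproteins were tested in the RNA-seq, of which 6 were lower, 3 higher and 12 did not pass, with a median log2 fold change of 0.00. Over all genes tested, 17.2% were lower and 15.6% higher. SELENON, which acts in calcium handling at the endoplasmic reticulum, fell by 0.60 (edgeR adjusted p = 4.29e-09). GPX4 fell by 0.32 (edgeR adjusted p = 1.06e-05), with 235.4, 219.2 and 211.2 CPM in PSTK-KO against 279.7, 262.9 and 287.5 in controls, so the groups did not overlap. TXNRD3, a thioredoxin reductase, fell by 0.61 (edgeR adjusted p = 0.000387). These 3 calls held under all 11 alternatives. The other 3 lower calls, named after their values were seen, were lost under 4 (SELENOH), 2 (SELENOO) and 4 (SELENOP) of them.

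SELENOI, a phospholipid synthase, rose by 0.30 (edgeR adjusted p = 0.000104) and held throughout. SELENOW rose by 0.21 and SELENOS by 0.17 (edgeR adjusted p = 0.0269 and 0.0366), and their calls were lost under 6 and 4 of 11 alternatives.

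Of 10 related factors tested, 2 were lower and 4 higher, with a median of 0.08, where 17.2% of all genes tested were lower and 15.6% higher. EIF4A3, a helicase of the exon junction complex that binds SECIS elements of some selenoproteins, fell by 0.36 (edgeR adjusted p = 7.19e-06). SELENBP1, a selenium-binding protein, fell by 0.57 (edgeR adjusted p = 0.0162), a call lost under 6 alternatives. RPL30, a ribosomal protein that also binds the SECIS element, rose by 0.69 (edgeR adjusted p = 6.36e-07), with the limit that processed pseudogenes can share its reads. SARS, the cytosolic seryl-tRNA synthetase that charges the selenocysteine tRNA with serine, rose by 0.19, and SECISBP2L, a paralogue of SECISBP2, rose by 0.29 (edgeR adjusted p = 0.00344 and 0.00411). The SECISBP2L call was lost under 3 alternatives, among them the one without PSTK-KO replicate 2.

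The RNA-seq label was checked against hepatocyte genes, which Hep3B is known to express. The summed level of 8 hepatocyte genes (ALB, AFP, APOA1, APOB, TTR, SERPINA1, TF and FGB) was 0.31 to 0.37 FPKM in PSTK-KO and 0.57 to 0.80 FPKM in controls, with no gene above 11 counts in PSTK-KO or 37 in controls, and 2 and 3 of them at 0 in every library of the group. The summed level of 7 genes of blood, fibroblasts and endothelium (PTPRC, HBB, CD14, COL1A1, DCN, PECAM1 and VWF) was 3.17 to 3.48 FPKM in PSTK-KO and 4.67 to 5.29 FPKM in controls. The libraries are therefore named by their labels throughout, and what these levels mean for the RNA-seq results was not tested.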

How the data were processed

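Guides of the TKOv3 library were counted in 32 screen libraries, and RNA was sequenced in 6 libraries. The screen files hold unnormalized guide counts that the authors obtained with Bowtie2 and deposited. Its version is not given in the sources used here. The RNA-seq files hold gene counts and the FPKM values the authors derived from them. The submitters' processing notes list featureCounts (1.5.0-p3) and HISAT2 (2.0.5). Although mm9 appears in the labels, the files carry human gene identifiers with GRCh38 positions. Columns of the authors' own comparison (fold changes and p-values by DESeq2) were not used.

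Members and lists were chosen with earlier results of these data known. NormZ followed the steps of DrugZ in Python (3.11.15; pandas 2.3.3, numpy 2.4.6, scipy 1.17.1), with counts scaled to 1e+07, a pseudocount of 5, log2 ratios taken between inhibitor and vehicle libraries of equal number, and the spread taken in windows of 1000 guides in steps of 25. Guide counts, counts summed per gene and RNA-seq counts were tested in R 4.3.3 with edgeR 4.0.16 (TMM, filterByExpr, quasi-likelihood test) at a Benjamini-Hochberg adjusted p under 0.05 over all features of a comparison. Each screen line was fitted over all 16 libraries. Control guides were compared within bands of mean vehicle count (30 to 100, and 100 or more).

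Named genes were the 9 members, the 3 called genes with the smallest adjusted p in each direction from the lists of selenoproteins and related factors, list genes called in 3 or more of 12 screens, and the 5 genes with the highest correlation to PSTK. Alternatives were DESeq2 1.42.0, limma 3.58.1 on log2 of FPKM with 1 or 0.1 added, no filter, other pseudocounts and scalings, a replicate block, and leaving out libraries. The edgeR test and NormZ were also run on simulated data with known changes, while DESeq2 and limma were not. Promoter windows and names came from RefSeq tables, and windows were found for 8 of the 9 members. Figures were drawn with matplotlib 3.10.9.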

Additional observations from a re-analysis of the deposited data

Results flagged for a closer look

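In the comparison of vehicle with T0, the summed guides of 4 members moved in opposite directions in the lines, with both vehicle libraries on one side of both T0 libraries in each line. PSTK had a log2 fold change of 0.11 in Hep3B and -0.06 in SNU-398. SEPHS2 had 0.13 in Hep3B and -0.32 in SNU-398. SCLY had -0.33 in Hep3B and 0.32 in SNU-398, and LRP8 had -0.05 in Hep3B and 0.30 in SNU-398. The difference between the lines was not tested for these sums, and only the Hep3B values of PSTK and SCLY passed edgeR's test over all libraries. Without Erastin replicate 2 in the fit, the SNU-398 values of SEPHS2, SCLY and LRP8 also passed. Of the other members, SEPHS1, EEFSEC and TRNAU1AP lay below T0 and SECISBP2 lay above T0 in both lines. SEPSECS lay above T0 in Hep3B and overlapped T0 in SNU-398. The share of all genes that moved oppositely in this way is not given here, so these directions are a description only.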

How the results depend on the processing

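The 8 resister calls of PSTK, the SNU-398 Sorafenib call of SEPSECS and the RNA-seq calls of EEFSEC and TRNAU1AP held under every alternative run, and no result changed direction with its call. Counts of members' calls moved as follows, and the cause was not tested. With vehicle against T0 in Hep3B, the 10 lower guides became 4 with DESeq2 and 6 to 9 without 1 library, the 3 lower genes became 1 to 2, and the 2 higher genes 1 to 2. In SNU-398, the same comparison gave 1 lower guide with DESeq2, 0 lower and 1 higher without a filter, and 0 of either without 1 library, where the main values were 2 and 2. Its count of 1 lower gene became 0 without any 1 library, and there were 0 higher genes in each of these. Under the inhibitors in SNU-398, leaving out 1 vehicle library gave 21 lower guides in either case and 3 to 5 higher (main values 33 and 9), and 9 lower and 2 higher genes (14 and 4). Leaving out SNU-398 Erastin replicate 2 gave 53 lower and 26 higher guides and 22 lower and 8 higher genes under the inhibitors, and 7 lower and 7 higher guides, 2 lower genes and 3 higher genes with vehicle against T0. In that fit, 22.65% to 58.09% of all guides were called under an inhibitor, against 2.947% to 45.41% in the main fit.

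Equal library numbers were checked for pairing and did not mark paired samples. Correlations of same-numbered deviations were 0.0308, 0.0988 and -0.0023 in the RNA-seq and had medians of 0.004 and 0.001 over group pairs in the screens. A replicate block gave 0 lower and 1 higher guides with vehicle against T0 in SNU-398, and left the RNA-seq members at 2 lower and 0 higher.

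Precision is limited by 2 libraries a screen group and by guides of few counts. For the edgeR fits, leaving out 1 replicate of every group at once could not be fitted and was not run. Guides without a target were often called too, and guides under a mean vehicle count of 30 were not compared with control guides.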
